A study of Mus musculus with 2 samples.

Results

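Aminoacyl-tRNA synthetases are the enzymes that join each amino acid to its transfer RNA, and their transcripts were compared between osteogenic marrow cultures of wildtype and Cpdm mice. Members were the genes of the cytosolic enzymes, of the mitochondrial enzymes and of the 3 scaffold proteins of the cytosolic multi-synthetase complex, taken from all non-control probe sets whose platform annotation named a single gene. Of 39 listed genes, 38 had such a probe set, 76 probe sets in all, and 36 genes were measured, out of 14055 measured genes on the array. Dars, the cytosolic aspartate enzyme, is not analysed here, and both probe sets of Mars2 and the probe set of Aars2 lay below the floor in both arrays. The family was selected on the signals of these same arrays, because some cytosolic members were lower in Cpdm, so the direction of the cytosolic genes below is a description and supports nothing further.

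The study profiled 2 cultures of unsorted mouse bone marrow cells on Affymetrix arrays, 1 array for wildtype and 1 for Cpdm mice. Cpdm is a spontaneous mutant line whose SHARPIN protein, part of the machinery that builds linear ubiquitin chains, does not function. Both cultures had been kept for 10 days with ascorbic acid at 50 µg/ml and β-glycerophosphate at 10 mM, the supplements that drive marrow stromal cells towards bone-forming osteoblasts, and no other treatment was given. The sources used here do not give strain background, age or how many mice each culture came from. With 1 array per genotype there was no replicate error and no test between genotypes, so all differences describe these 2 arrays.

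Cells hold separate sets of these enzymes for translation in the cytosol and in mitochondria, both encoded in the nucleus. In the cytosol, several of the enzymes sit together in the multi-synthetase complex, while the others work as free enzymes. Genes of many cytosolic enzymes are known targets of ATF4, the transcription factor of the integrated stress response, which acts when amino acids run short or secretory load is high, and which osteoblasts need for collagen synthesis.

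Signals are MAS5 values on a linear scale, and a signal below the 40th percentile of its array (18.5 in Cpdm, 18.7 in wildtype) was set to that floor. For each gene the probe set brightest on average (mean log2 signal) is given first, and every measured member lay above the floor in both arrays. Differences are log2 ratios of Cpdm over wildtype. The 18 hybridisation spike-ins had log2 ratios between -0.22 and 0.20. Over 5250 genes the scatter between probe sets of 1 gene had a robust SD of 0.32 per probe set on the log2 scale. The cultures also differed in control probe sets for 18S ribosomal RNA, with log2 ratios from -3.75 to -2.37, and in sex-linked transcripts, with Xist 4.51-fold higher and Uty 3.77-fold lower in the Cpdm array. Their part in the results below was not tested. Sharpin read 162 in Cpdm and 197 in wildtype, and since a mutant transcript need not be lost, this does not check the genotype labels.

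Most cytosolic synthetase transcripts were lower in the Cpdm culture, while those of the mitochondrial enzymes differed little. Of 19 measured cytosolic enzymes, 11 were at least 1.5-fold lower and 5 of these at least 2-fold lower, and none was 1.5-fold higher. Over all measured genes, 13.5% were at least 1.5-fold lower, 15.7% at least 1.5-fold higher and 5.98% at least 2-fold lower. The median log2 ratio was -0.72 for the cytosolic enzymes, against 0.03 for all measured genes. Of 14 measured mitochondrial enzymes, 1 was at least 1.5-fold lower and none 1.5-fold higher, with a median of -0.05.

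The tyrosine enzyme gene Yars had the lowest ratio of all members, with a signal of 47.5 in Cpdm and 224 in wildtype. That is 4.72-fold lower, or 21.2% of wildtype, and rests on a single probe set. The cysteine enzyme gene Cars read 82.7 in Cpdm and 237 in wildtype, 2.87-fold lower, and its other probe set lay below the floor in both arrays. By its brightest probe set, no other measured member was more than 2.5-fold lower.

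Among enzymes that work outside the complex, the serine enzyme gene Sars read 633 in Cpdm and 1417 in wildtype, 2.24-fold lower. A second Sars probe set read 388 and 1080, 2.78-fold lower. Tars, for threonine, read 324 and 691, 2.13-fold lower by its only probe set. Gars, whose gene supplies the glycine enzyme of both cytosol and mitochondria, read 674 in Cpdm and 1309 in wildtype, which is 1.94-fold lower and just short of 2-fold. The alanine enzyme gene Aars read 459 and 792, 1.73-fold lower, and another Aars probe set read 216 and 484, 2.24-fold lower. All of these transcripts were still far above the floor in the Cpdm culture.

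The enzymes of the multi-synthetase complex divided. Iars, for isoleucine, read 451 in Cpdm and 1033 in wildtype, 2.29-fold lower, and 2.02-fold lower by its other probe set. Eprs encodes the fused enzyme for glutamate and proline and read 435 and 858, 1.97-fold lower. Its further probe sets were 2.13-fold and 2.24-fold lower, so that the brightest of the 3 was the one short of 2-fold. Lars, for leucine, read 469 in Cpdm and 799 in wildtype, and Mars, for methionine, read 226 and 371, which are 1.70-fold and 1.64-fold lower. Kars, which like Gars serves both compartments, read 299 and 450 and lay just past the 1.5-fold line at 1.51-fold lower.

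In the same complex, the arginine enzyme gene Rars ran the other way, with 782 in Cpdm and 578 in wildtype, 1.35-fold higher by its only probe set. Qars, for glutamine, gave no single direction. Its brightest probe set read 489 in Cpdm and 426 in wildtype, 1.15-fold higher, another read 347 and 249, and yet another read 267 in Cpdm against 323 in wildtype. In all, 5 of 7 measured complex enzymes and 6 of 12 enzymes outside the complex were at least 1.5-fold lower, against 13.5% of all measured genes. Their median log2 ratios were -0.72 and -0.66. Lower enzymes and others were thus found both inside and outside the complex.

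The scaffold proteins that hold the complex together did not share the lower values of its enzymes. Aimp1 read 409 in Cpdm and 472 in wildtype, Aimp2 read 288 and 333, and Eef1e1, also known as AIMP3, read 484 and 452. Their log2 ratios of -0.21, -0.21 and 0.10 all lay within 1 SD (0.32) of the scatter between probe sets of 1 gene.

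Outside the complex, other enzymes were little lower or slightly higher. Wars, for tryptophan, read 121 in Cpdm and 175 in wildtype, with log2 ratios from -0.53 to -0.11 over 3 probe sets. Vars, for valine, read 72.4 and 100.4, a log2 ratio of -0.47. The asparagine enzyme gene Nars read 1144 and 1547, with log2 ratios of -0.44 and -0.71 by its 2 probe sets. Hars, for histidine, read 373 and 432, a log2 ratio of -0.21. Both chains of the phenylalanine enzyme were on the higher side in Cpdm. Farsb, the beta chain, read 777 in Cpdm and 540 in wildtype, and its 3 probe sets above the floor had log2 ratios from 0.45 to 0.53. Farsa, the alpha chain, read 84.5 and 75.3, a log2 ratio of 0.17.

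**Figure D1:**
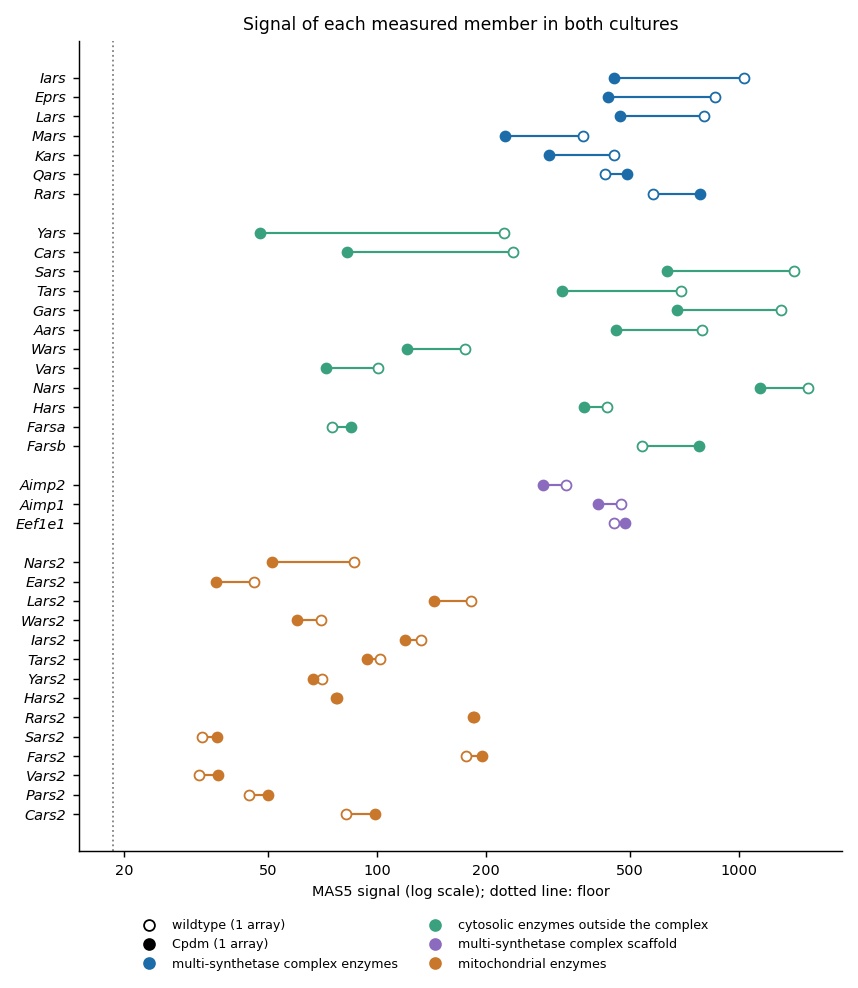
MAS5 signal (log scale) of each of the 36 measured members in the wildtype array (open circles) and the Cpdm array (filled circles), coloured by class, with the floor as a dotted line. In most rows of the cytosolic enzymes the filled circle lies to the left, from Yars at 47.5 against 224, while the circles of the mitochondrial enzymes lie close together.

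Different probe sets of the lower genes went together. Of the 11 cytosolic enzymes at least 1.5-fold lower, 4 (Iars, Eprs, Aars and Sars) were measured in both arrays by more than 1 probe set, and in all 4 each of these was at least 1.5-fold lower. The other 7 rest on 1 probe set each. Leaving out probe sets that either array put below the floor, 10 cytosolic enzymes had several, and 9 had them on the same side of 0, the exception being Qars. Of 7 mitochondrial enzymes with several, 1 did, Iars2. Farsa and Farsb each had a further probe set above the floor in wildtype alone, and these lay on the lower side, with log2 ratios of -0.23 and -0.17 after the floor.

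**Figure D2:**
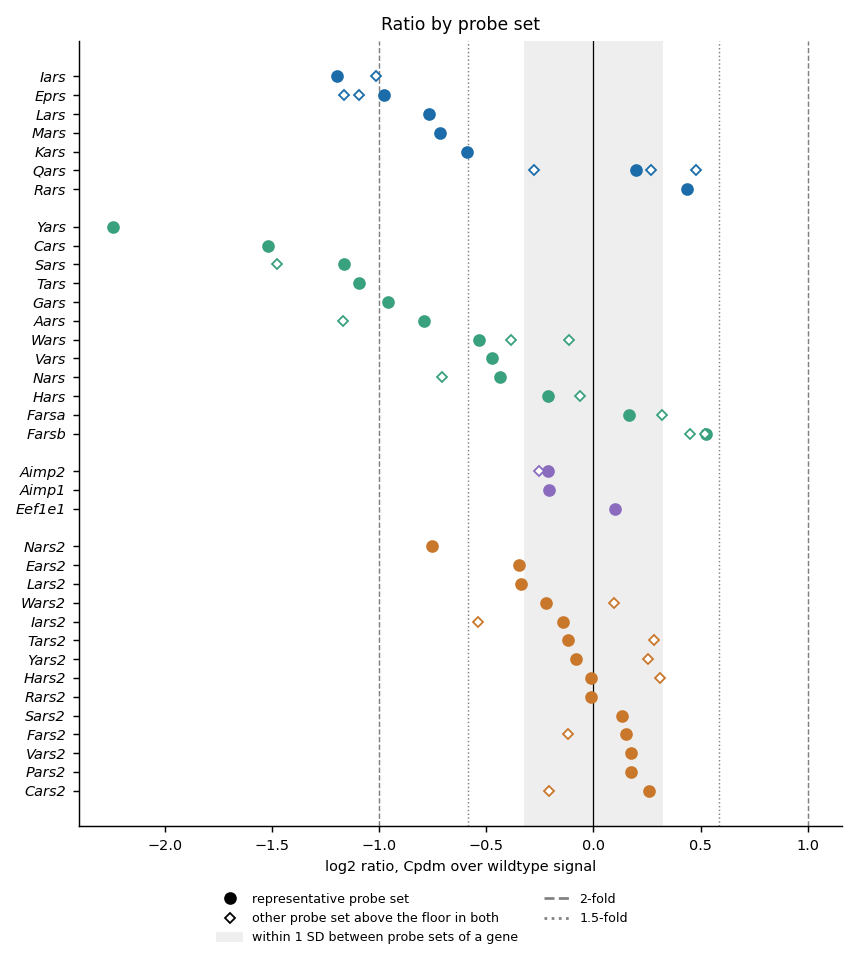
Log2 ratio of Cpdm over wildtype for every member probe set that exceeded the floor in each array, with the representative probe set as a filled circle and others as open diamonds. The grey band marks 1 SD (0.32) of the scatter between probe sets of 1 gene, and the lines mark 1.5-fold and 2-fold. The probe sets of Iars, Eprs, Sars and Aars all lie left of the 1.5-fold line, and those of Farsb lie together right of the band.

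The split did not follow the structural classes of the enzymes. Synthetases fall into class I and class II, with unrelated catalytic folds. Among cytosolic enzymes, 5 of 9 in class I and 5 of 9 in class II were at least 1.5-fold lower, against 13.5% of all measured genes. Their median log2 ratios were -0.72 and -0.59. These counts leave aside Eprs, which joins an enzyme of each class.

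Promoter sequences are shown for the lower cytosolic genes that hold the C/EBP-ATF composite element, the sequence to which ATF4 binds together with a C/EBP partner, and for a pair of contrasts. RefSeq windows from 250 bases before to 50 bases after the annotated start (GRCm38.p6) were given for 29 members, 12 of them cytosolic enzymes and 14 mitochondrial. The element was searched as TGATGNAA on both strands, and matches are in capitals on the strand of the gene; a match on the other strand shows as its reverse complement. Sars is shown as a lower gene without a match and Farsb as a gene on the higher side without one. The windows are Yars at chr4:129189653-129189952 (plus strand), Iars at chr13:49681880-49682179 (plus), Tars at chr15:11399609-11399908 (minus), Gars at chr6:55037751-55038050 (plus), Aars at chr8:111033592-111033891 (plus), Sars at chr3:108445210-108445509 (minus) and Farsb at chr1:78488848-78489147 (minus).
Yars: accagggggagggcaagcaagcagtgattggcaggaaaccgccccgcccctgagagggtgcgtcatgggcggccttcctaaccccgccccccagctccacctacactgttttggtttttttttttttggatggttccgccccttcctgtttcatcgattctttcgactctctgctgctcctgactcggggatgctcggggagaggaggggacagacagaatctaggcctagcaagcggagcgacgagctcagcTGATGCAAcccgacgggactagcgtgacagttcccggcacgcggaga
Iars: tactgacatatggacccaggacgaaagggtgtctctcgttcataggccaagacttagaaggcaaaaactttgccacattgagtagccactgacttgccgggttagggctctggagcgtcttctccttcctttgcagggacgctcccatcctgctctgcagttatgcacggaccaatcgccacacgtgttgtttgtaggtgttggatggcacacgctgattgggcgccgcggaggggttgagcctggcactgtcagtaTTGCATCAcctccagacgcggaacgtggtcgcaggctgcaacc
Tars: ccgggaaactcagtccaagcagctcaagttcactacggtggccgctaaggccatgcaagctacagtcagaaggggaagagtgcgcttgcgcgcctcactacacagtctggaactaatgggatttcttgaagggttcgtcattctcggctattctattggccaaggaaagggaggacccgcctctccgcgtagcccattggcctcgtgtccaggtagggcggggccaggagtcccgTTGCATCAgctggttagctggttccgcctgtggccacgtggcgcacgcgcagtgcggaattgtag
Gars: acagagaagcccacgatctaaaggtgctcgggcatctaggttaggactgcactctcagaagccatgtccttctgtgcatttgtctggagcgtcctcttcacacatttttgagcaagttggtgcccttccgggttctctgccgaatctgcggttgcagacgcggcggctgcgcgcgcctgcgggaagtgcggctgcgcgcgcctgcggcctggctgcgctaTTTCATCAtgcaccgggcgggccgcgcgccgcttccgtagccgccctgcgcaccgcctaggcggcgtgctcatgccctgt
Aars: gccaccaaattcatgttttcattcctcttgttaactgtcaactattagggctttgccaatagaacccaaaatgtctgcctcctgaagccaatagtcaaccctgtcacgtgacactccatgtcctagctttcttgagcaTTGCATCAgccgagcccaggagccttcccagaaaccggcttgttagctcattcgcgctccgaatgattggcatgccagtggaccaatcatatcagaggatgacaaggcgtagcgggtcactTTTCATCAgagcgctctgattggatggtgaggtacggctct
Sars: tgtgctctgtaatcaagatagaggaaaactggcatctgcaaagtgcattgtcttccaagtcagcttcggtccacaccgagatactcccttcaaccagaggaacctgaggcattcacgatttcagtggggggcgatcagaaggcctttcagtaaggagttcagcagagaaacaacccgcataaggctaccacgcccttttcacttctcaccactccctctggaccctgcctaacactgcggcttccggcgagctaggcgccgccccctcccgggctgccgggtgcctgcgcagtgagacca
Farsb: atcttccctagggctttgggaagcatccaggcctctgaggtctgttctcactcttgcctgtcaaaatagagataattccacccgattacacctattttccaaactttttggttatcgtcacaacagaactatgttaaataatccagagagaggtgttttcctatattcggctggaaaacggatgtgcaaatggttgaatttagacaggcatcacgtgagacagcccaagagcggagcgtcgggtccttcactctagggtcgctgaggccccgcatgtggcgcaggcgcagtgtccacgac

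A match stood in 5 of the 12 cytosolic windows and in none of the 14 mitochondrial or 3 scaffold windows. Over all genes with a window, 1219 of 27025 (4.51%) held one, and so did 337 of 11239 measured genes (2.998%). The 5 genes were Yars, Iars, Tars, Gars and Aars, and their log2 ratios ran from -2.24 to -0.79. The matches lay at positions 4 to 11 after the start in Yars, 8 to 15 in Iars, -15 to -8 in Tars and -30 to -23 in Gars. Aars held 2, at -112 to -105 and 10 to 17. The 7 cytosolic genes with a window and no match ran from -1.16 to 0.53. Of them 4, Sars, Eprs, Mars and Kars, were at least 1.5-fold lower as well, against 13.5% of all measured genes. Cars, Lars, Nars, Hars, Rars, Vars and Wars had no window and were not searched. Of the cytosolic genes searched, only Farsa, Farsb and Qars were not at least 1.5-fold lower. Most matches would thus fall in lower genes wherever they stood, so their place there is a description only. The stricter form TGATGCAA, which is part of the first, stood in 4 of the 12 cytosolic windows (Yars, Iars, Tars and Aars) and in 1.03% of all genes with a window.

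The other motifs searched stood in genes on both sides of 0. The E box CACGTG reads alike on both strands and is known as a MYC element. It stood in 4 of the 12 cytosolic windows (Aars, Iars, Tars and Farsb), against 8.09% of all genes and 10.95% of measured genes. Of these, Aars, Iars and Tars were at least 1.5-fold lower and also held the C/EBP-ATF element. Among the 14 mitochondrial windows the E box stood in Ears2 alone. The NRF1 motif, searched on both strands and known from genes of mitochondrial function, stood in 3 of the 12 cytosolic windows (Farsb, Kars and Tars). It also stood in 2 of the 14 mitochondrial windows (Iars2 and Mars2) and in Eef1e1. Its share was 5.19% of all genes and 10.15% of measured genes. A match says only that the letters are present in the window.

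**Figure D3:**
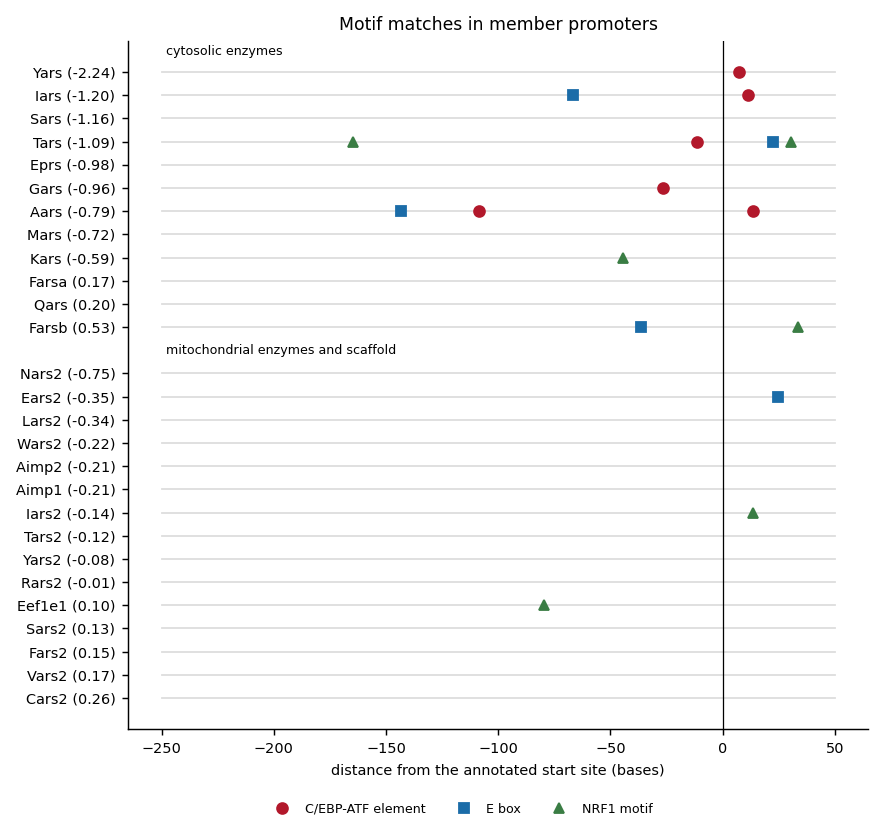
Position of motif matches (bases from the annotated start site) in the promoter windows of measured members, with each gene's log2 ratio in brackets and genes ordered by it within the cytosolic group and within the others. Matches to the C/EBP-ATF element (circles) stand in Yars, Iars, Tars, Gars and Aars. E boxes (squares) stand in Iars, Tars, Aars, Ears2 and Farsb, of which only Farsb is above 0. NRF1 motifs (triangles) are spread over lower and higher genes.

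Mitochondrial enzymes differed less between the cultures. Nars2, for asparagine, was the exception with 51.3 in Cpdm and 86.4 in wildtype, 1.69-fold lower. A second Nars2 probe set read 12.3 and 19.0, below the floor in Cpdm and just above it in wildtype, which left a log2 ratio of -0.04 after the floor. With the mean over both probe sets, the floored one included, the log2 ratio of Nars2 was -0.40, inside the 1.5-fold line. The glutamate enzyme gene Ears2 read 36.0 and 45.8, and the leucine enzyme gene Lars2 read 144 and 182, with log2 ratios of -0.35 and -0.34. By their brightest probe sets, the remaining 11 lay within 1 SD (0.32) of the scatter between probe sets of 1 gene, from -0.22 for Wars2 to 0.26 for Cars2. Some dimmer probe sets lay further out. A second Iars2 probe set read 33.5 in Cpdm and 48.8 in wildtype, a log2 ratio of -0.54. Another of Lars2, above the floor in wildtype alone, had -0.61 after the floor. A further Cars2 probe set, above the floor in Cpdm alone, had 0.36 after the floor. Rars2 was near equal at 184.5 and 186, and so was Hars2 at 77.2 and 77.7. The signals of this class ran from 32.2 to 186 in wildtype. Among all measured genes in its range of mean signal, 14.5% were at least 1.5-fold lower, and in the range of the cytosolic enzymes 12.4% were.

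Compared amino acid by amino acid, the cytosolic enzyme had the lower ratio in 11 of 15 pairs, with a median difference of -0.63 log2 units. Taking 0.45 as the SD of a difference between 2 probe sets, 8 pairs lay beyond it with the cytosolic enzyme lower, none with it higher, and 7 lay within it. The arginine pair, with the cytosolic enzyme higher by 0.446, fell only just short of that SD (0.453). The pairs are not all separate measurements. Eprs enters with both Ears2 and Pars2, both among the 8, and Fars2 enters with both phenylalanine chains. The family was also picked on the cytosolic values, so these counts are a description only. The largest gap was for tyrosine, where Yars had a log2 ratio of -2.24 and Yars2 of -0.08. For cysteine, Cars had -1.52 and Cars2 0.26, and for serine Sars had -1.16 and Sars2 0.13. The cytosolic enzyme had the higher ratio for arginine, asparagine and both phenylalanine chains. For histidine the difference was -0.20, and the Hars and Hars2 genes, which lie side by side in the RefSeq table, were both near equal between cultures. Glutamine has no pair, since mitochondria charge that transfer RNA through Ears2 and an amidotransferase. Alanine and methionine could not be compared because Aars2 and Mars2 were below the floor.

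**Figure D4:**
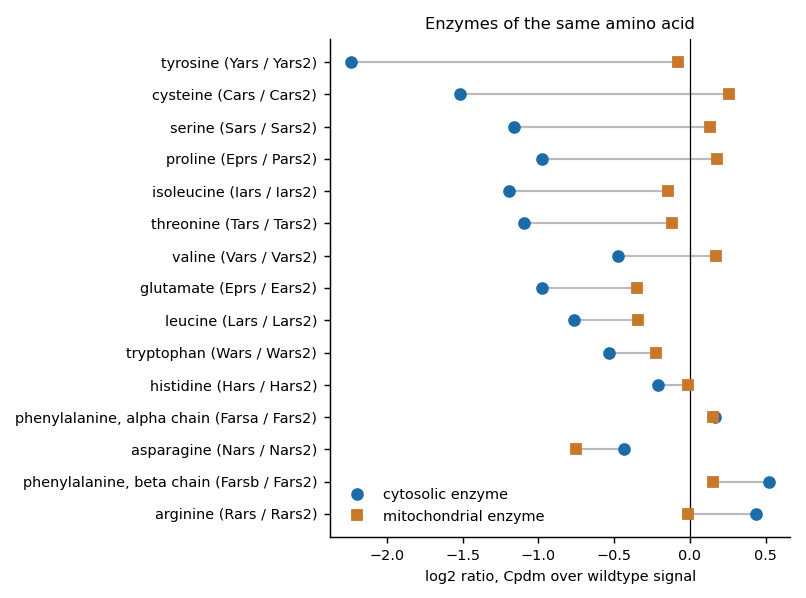
Log2 ratio of Cpdm over wildtype of the cytosolic enzyme (circles) and the mitochondrial enzyme (squares) for 15 pairs, ordered by their difference. The squares lie between -0.35 and 0.26 except for asparagine, while the circles spread from -2.24 for Yars to 0.53 for Farsb.

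Other genes of protein synthesis mostly differed little. At 1.5-fold, 13.5% of all measured genes were lower and 15.7% higher. Of 24 measured cytosolic initiation factors, 2 were at least 1.5-fold lower and none 1.5-fold higher, with a median log2 ratio of -0.03. None of 5 elongation factors, which carry charged transfer RNA to the ribosome or move it along, passed 1.5-fold, with a median of -0.28. In the list of mitochondrial translation factors and the amidotransferase, 1 of 12 was at least 1.5-fold lower and 1 higher, with a median of 0.05. Among 9 proteins that edit, mature or export transfer RNA, 2 were at least 1.5-fold lower and none 1.5-fold higher, with a median of 0.0048. The member of that list furthest from 0 was Xpot, the exporter of transfer RNA from the nucleus, with 440 in Cpdm and 962 in wildtype. It was 2.19-fold lower, and 1.96-fold and 2.11-fold lower by further probe sets measured in both arrays.

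The list of integrated stress response genes and ATF4 targets had a lower median ratio than the synthetases. Of 29 measured genes, 21 were at least 2-fold lower and none was 2-fold higher, against 5.98% lower and 5.84% higher over all measured genes, and the median log2 ratio was -1.63. Chac1, a glutathione-degrading enzyme, read 47.9 in Cpdm and 882 in wildtype, 18.4-fold lower. Vldlr, a lipoprotein receptor, was 17.9-fold lower. The amino acid transporter gene Slc7a5 was at least 12.03-fold lower, being below the floor in Cpdm and at 222 in wildtype. Named after its values were seen, Atf4 itself read 819 in Cpdm and 1803 in wildtype, 2.20-fold lower, and 2.21-fold lower by another probe set. The eIF2α kinases and phosphatases that open or close this response had a median of -0.03. At least 1.5-fold lower was 1 of 7, against 13.5% of all measured genes. It was the phosphatase subunit gene Ppp1r15a, which is also counted in the ATF4 list above.

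Interferon gamma is known to induce Wars. Most genes in a list of others it induces were higher in Cpdm, while Wars was a little lower. Of 10 measured genes of the list, 6 were higher in Cpdm by 2-fold or more and none was lower by as much. The shares over all measured genes were 5.84% higher and 5.98% lower. The list had a median log2 ratio of 1.05. The 1 gene below 0 was Ciita, the regulator of MHC class II genes, with 20.4 in Cpdm and 27.0 in wildtype, both close to the floor. Gbp2 read 217 in Cpdm and 39.8 in wildtype. Wars was lower by all 3 of its probe sets that were measured in both arrays, with log2 ratios from -0.53 to -0.11, none of them past 1.5-fold. Any part of interferon gamma in these values was not tested.

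**Figure D5:**
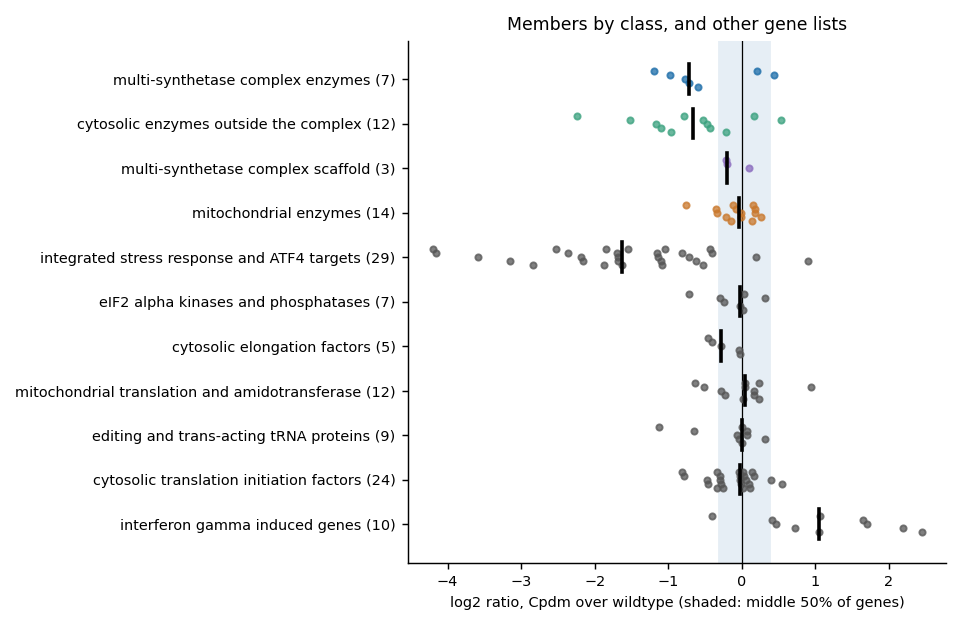
Log2 ratio of Cpdm over wildtype for each measured gene of the 4 member classes and of 7 other gene lists, with the number of genes in brackets, the median as a black bar and the middle 50% of all measured genes shaded. The medians of both cytosolic enzyme classes lie left of the shading at -0.72 and -0.66, that of the ATF4 list lies further left at -1.63, and those of the translation factor lists lie inside it.

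Markers of the cell types in these cultures differed too, with osteoblast markers lower in Cpdm, as most cytosolic synthetases were, and most macrophage markers higher. At 2-fold, 5.98% of all measured genes were lower and 5.84% higher. Of 14 osteoblast and stromal markers, 10 were measured, 8 were at least 2-fold lower in Cpdm and none was higher. Their summed signal was 8391 in Cpdm and 18642 in wildtype. Phex was below the floor in Cpdm. All 14 macrophage markers were measured, 3 were at least 2-fold higher and none 2-fold lower, with a summed signal of 30489 in Cpdm and 23743 in wildtype, and Marco was below the floor in wildtype. Their part in the lower synthetase signals was not tested. In unsorted cultures, fewer cells of a type and less RNA per cell cannot be told apart. Some defining markers of other lineages lay below the floor in both arrays, namely Elane and Camp of neutrophils, Cd79a of B cells, Cd3d, Cd3g and Nkg7 of T and NK cells, Hba-a1 and Alas2 of red cell precursors, and Pecam1, Cdh5 and Tek of endothelium. Other markers of these lineages were measured. Of 6 neutrophil markers 5 were below 0, with a median log2 ratio of -0.43, and the other, Csf3r, was 1.76-fold higher in Cpdm. Of 4 B cell markers 3 were above 0, with a median of 0.49, led by Cd22 and Blnk at 1.99-fold and 1.86-fold higher. Among 3 T and NK cell markers the median was -0.24, and Cd4, which was below the floor in wildtype, was at least 7.83-fold higher. Among 3 erythroid markers the median was 0.11, and Tfrc, the transferrin receptor, read 1434 in Cpdm and 478 in wildtype, a log2 ratio of 1.59. All 3 endothelial markers were below 0, with a median of -0.58, and Flt1, below the floor in Cpdm, was at least 3.34-fold lower. The part of these lists in the synthetase signals was not tested either. Over the remaining lists, the median log2 ratio was -0.24 for 4 osteoclast genes, -0.47 for 6 adipocyte genes, 0.02 for 4 mast cell and basophil genes and -0.25 for 4 megakaryocyte genes. Some of these medians cover genes that went opposite ways. In the mast cell and basophil list Mcpt8 was 5.24-fold higher and Kit 2.39-fold lower. In the adipocyte list Scd1 was 6.03-fold lower and Cebpa 1.98-fold higher.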

How the data were processed

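Messenger RNA was measured in 2 mouse marrow cultures, 1 array each, from 5 µg of total RNA. The authors deposited linear signal intensity values for 45101 probe sets, and the submitters' processing notes name GCOS 1.4 and MAS5. The trimmed mean after leaving out 2% at each end was 100.001 in both columns, so signals were compared without further scaling; the sources used here give no detection calls, background settings or scaling target. The number of arrays limits the precision. Of 45037 non-control probe sets, 34945 carried exactly 1 gene in the platform annotation, and the Entrez identifiers of all 38 members with a probe set matched RefSeq. The calculation ran in Python 3.11.15 (pandas 2.3.3, numpy 2.4.6; lowess from statsmodels 0.14.6) and was tested on simulated data. A gene was measured if a probe set reached the floor in at least 1 array. Members and gene lists were chosen with earlier results of these data known. Every member could be named, and of every other list the genes furthest from 0, at most 3. Named besides these were Atf4, Ciita as the only gene of its list below 0, and some markers below the floor. Osteoclast, adipocyte, mast cell and megakaryocyte markers were also listed. Probe sets ending in _s_at or _x_at can bind related transcripts. The alternatives changed the floor, the scaling or the probe set of a gene, or left out Gars and Kars.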

Additional observations from a re-analysis of the deposited data

How the results depend on the processing

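No paired analysis was possible because each genotype has 1 array. Up to 10 other settings changed the floor, scaling or probe set choice, or left out Gars and Kars. Across them the median log2 ratio of the cytosolic enzymes stayed between -0.77 and -0.69. That of the mitochondrial enzymes stayed between -0.09 and 0.04. Between 9 and 12 cytosolic enzymes were at least 1.5-fold lower and 5 to 7 at least 2-fold lower, and none was 1.5-fold higher. The count of 9 was out of 17, with the lower genes Gars and Kars left out. With both kept, the lowest count was 10, under median scaling. Over all measured genes, the share at least 1.5-fold lower ran from 11.98% to 18.3% across the settings. The share at least 2-fold lower was 5.98% in the main setting. The count of mitochondrial enzymes at least 1.5-fold lower was 0 with the mean over probe sets, where Nars2 had a log2 ratio of -0.40. The same settings, added for the ATF4 list after seeing the data, gave medians from -1.68 to -1.31 and 19 to 21 genes at least 2-fold lower. All 12 members at least 1.5-fold lower kept their sign in every setting. Under the other scalings 34 of 36 members kept their sign, the exceptions being Hars2 and Rars2, both near 0. Over all settings, probe set choice included, 10 of 36 changed sign in at least 1: Qars, Farsa, Farsb, Fars2, Hars2, Rars2, Tars2, Vars2, Wars2 and Yars2. With the dimmest measured probe set, Farsa and Farsb had log2 ratios of -0.23 and -0.17 from probe sets near the floor. Signals near the floor limit the mitochondrial class most.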

Other observations

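A probe set that the platform annotation gives to both Aars and Exosc6 was left out by the selection rule. It read 101.3 in Cpdm and 70.6 in wildtype, opposite in direction to both probe sets of Aars alone.

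Prorsd1, a relative of the editing domain of proline enzymes, read 229 in Cpdm and 358 in wildtype, a log2 ratio of -0.64. Tsfm, the mitochondrial elongation factor that recharges the carrier of aminoacyl-tRNA, read 67.7 and 105, a log2 ratio of -0.64, and Mtif3, a mitochondrial initiation factor, read 61.5 and 32.0, a log2 ratio of 0.94. Among cytosolic initiation factors, Eif3c and Eif2b1 had log2 ratios of -0.82 and -0.78, and Eif5b of 0.54.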
